A study of Ovis aries with 49 samples.

Results

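The proteasome genes measured in the adipose tissue of young lambs were described here, as 40 of 10273 probe sets on the arrays. A probe set, a group of short probes read out as 1 value, was taken as a member when its gene symbol was PSMA, PSMB, PSMC, PSMD, PSME, PSMF or PSMG followed by a digit, or was POMP, ADRM1 or VCP. Of the 40, 38 were genes of the proteasome, its assembly factors, its activators and inhibitor, or VCP. The other 2 matched by their letters alone: PSMB8-AS1, an antisense RNA beside PSMB8, and PSME3IP1, a protein that binds PSME3. They were counted as the rule has it and are named apart.

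The proteasome is the protease complex that removes proteins marked with ubiquitin. Its barrel, the 20S core, is built from rings of alpha subunits (PSMA genes) around rings of beta subunits (PSMB genes), and some of the beta subunits, among them PSMB5 and PSMB6, cut the protein chain. The 19S cap sits on the ends of the barrel: its ATPases (PSMC genes) unfold the substrate, and its other subunits (PSMD genes and ADRM1) hold it together, bind ubiquitin or, in the case of PSMD14, take the ubiquitin off. Under interferon, PSMB8, PSMB9 and PSMB10 replace the usual cutting subunits and PSME1 and PSME2 form another cap, which changes the peptides made for antigen presentation. VCP is the ATPase that pulls ubiquitin-marked proteins out of membranes and complexes before they reach the proteasome. In brown and beige fat, proteasome activity is known as a part of how the cell copes with its heavy protein turnover during heat production.

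RNA of 5 depots of sheep (epicardial, omental, perirenal, sternal and subcutaneous adipose tissue) was hybridised to human expression arrays at 7 and 28 days after birth, 49 arrays in all. Each of the 10 groups held 5 arrays, except subcutaneous fat at 7 days with 4. The lambs were offspring of Bluefaced Leicester cross Swaledale ewes, and of each pair of sex-matched twins 1 was sampled at 7 days and the other at 28 days. The labels name no maternal diet for single arrays, although the study fed some ewes a canola supplement. All 49 titles hold the same letter C, which the labels do not explain. No transgene or drug was used, each sample was whole tissue, and in such bulk samples fewer cells of a type and less RNA per cell cannot be told apart. The amount of tissue extracted differed between the ages, and it and any difference in collection or array handling cannot be told apart from age. The study took each depot from 5 animals of a group and several depots from the same animal, while the labels do not say which arrays share one. The number that ends a title may be the animal. Values or counts from a fit with that number as a block are given for part of the calls that it ended. Arrays are numbered from 1 within a group, in the order of the number in their titles and of the values given here; the same array number in different groups has no meaning.

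The labels of adipose tissue were checked against marker genes. Of 9 adipocyte markers 6 were measured (CIDEC, FABP4, LIPE, LPL, PNPLA2 and PPARG), and none had a mean of 4 or more in any group, on a log2 scale that ran from 2.488 to 14.044. The human probes thus read these markers near the lower end of the scale. Muscle markers were present in part of the arrays. CKM, a creatine kinase found in muscle, exceeded 4 in all 5 epicardial arrays at 7 days, 4 of 5 at 28 days, and in 1 sternal and 3 subcutaneous arrays at 7 days and 3 sternal and 2 subcutaneous arrays at 28 days. Omental and perirenal fat had none at either age. The 9 sternal and subcutaneous arrays concerned are called the arrays rich in CKM below, and no epicardial array was left out with them. Of 7 cardiac muscle markers 5 were measured, all with a mean of at least 4 in epicardial fat at both ages. In epicardial arrays they summed to 36.956 to 54.503 at 7 days and 14.032 to 53.052 at 28 days. Omental arrays summed to 13.505 to 13.583 at 7 days. Such a mean was also reached by 3 of them in subcutaneous fat at 7 days and 2 in sternal fat at 28 days. The part of heart muscle was not tested. The mean over all probe sets of a group's arrays ran from 3.275 in sternal fat at 28 days to 3.416 in omental fat at 28 days.

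All levels below are log2 values of the authors, differences are in log2 units, and a probe set was called at an adjusted p of at most 0.05 by limma over all 10273 probe sets. Of the 40 members, 20 had a mean of at least 4 over the 49 arrays, all of them proteasome genes. The low members included PSME1, POMP, PSMC4, PSMB1, PSMG2, PSMG4, PSMD5 and PSMA8, whose means lay between 2.518 and 2.772. Many values recurred exactly from array to array: PSMB6 was 4.06 in 16 arrays, PSMB3 was 6.834 in 15 arrays and PSMB8 was 3.682 in 19 arrays, equal to 5 decimals. For the 20 members at or above 4 the most frequent value was held by a median of 8 arrays, against 6 for all 1752 probe sets with such a mean. The SD within a group is small where several of its arrays hold the recurring value, and the cause of the recurrence was not tested.

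The members were first compared between the ages. Averaged over the 5 depots, 8 of the 40 members fell and 7 rose between 7 and 28 days, while of all probe sets 4.85% fell and 20.6% rose. The 8 that fell, 20% of the members, were subunits of the core and cap and 1 activator: PSMA1, PSMA2, PSMA3, PSMB3, PSMB6, PSMC6, PSMD14 and PSME3. Those that rose were PSMC1, PSMD3, PSMD4, PSMB8, PSMB10, VCP and PSME3IP1. All 8 that fell had a mean of at least 4, so that 40% of the 20 members of that level fell and 10% rose (PSMC1 and VCP), against falls in 16.6% and rises in 43.9% of the 1752 probe sets of that level. The average over depots was chosen as a summary after the changes of the single depots had been seen. Its test took the 49 arrays as independent, though several may come from 1 animal, and did not use the twin pairs. With the title number as a block 8 members fell and 7 rose, beside 4.73% and 20.1% of all probe sets. That fit gave arrays of 1 number a shared correlation, estimated at 0.011, and was thus nearly the fit without a block. It cannot decide whether shared animals affect these calls. The block in the comparisons of depots at 1 age was instead a fixed term for each number. All 15 calls held when any 1 of the 49 arrays was left out, and the total was then 15 or 16. When all arrays of 1 title number were left out together, for each of 15 numbers in turn, 12 of the 15 calls held throughout. PSMB8 and PSMA3 were each lost without any of 3 numbers and PSMD3 without 1, with adjusted p values of up to 0.166, 0.0792 and 0.0691 (limma). Cell type markers also moved with age: all 4 measured endothelial markers, 1 of 4 leukocyte markers and 1 of 2 mesothelial markers rose, and 2 of 4 brown adipocyte markers fell. Of the measured adipocyte markers, PPARG (0.16) and PNPLA2 (0.12) rose and the others did not pass. Their part in the result was not tested.

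**Figure D1:**
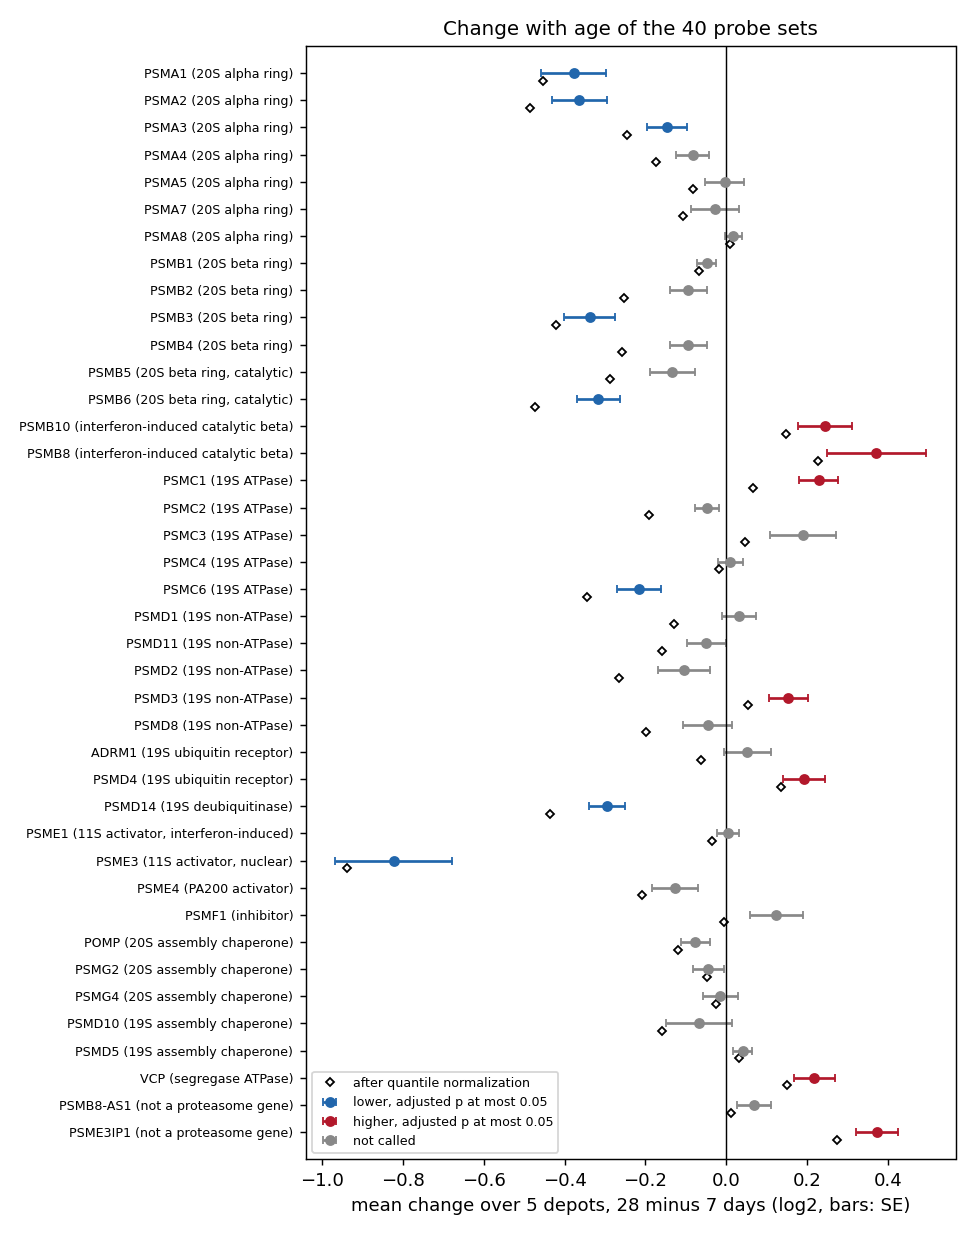
Mean change over the 5 depots from 7 to 28 days in log2 units (x axis) for each of the 40 probe sets (y axis, ordered by role), with SE as bars; blue points were called lower, red points higher and grey points not called, and open diamonds are the same changes after quantile normalization. Blue points lie among the 20S subunits, PSMC6, PSMD14 and PSME3, the red points include both interferon-induced beta subunits and VCP, and nearly all diamonds lie to the left of their points.

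The balance of rises and falls depended on how the arrays were scaled. The median change of all 1752 probe sets at or above 4 was 0.13, and the median of the 20 members of that level was -0.115. After quantile normalization, which gives every array the same distribution, those medians were -0.002 and -0.256. Then 20 members were called lower and 2 higher (VCP and PSME3IP1), beside falls in 8.44% and rises in 9.95% of all. The 8 members that fell on the deposited scale were among those 20. Of the 7 that rose, PSMB8, PSMB10, PSMC1, PSMD3 and PSMD4 kept a positive difference without passing the test.

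In each depot, too, the median of the members lay below that of all probe sets of their level. In epicardial fat the 20 members had a median change of -0.258 and all probe sets of that level 0.101. In omental fat the medians were 0.006 and 0.26, in perirenal fat -0.069 and 0.109, in sternal fat -0.218 and -0.075, and in subcutaneous fat -0.083 and 0.194. Between 16 and 18 of the 20 members lay below the median of all in every depot. The members are genes of 1 complex measured on the same arrays, so their number is not a number of replicates.

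**Figure D2:**
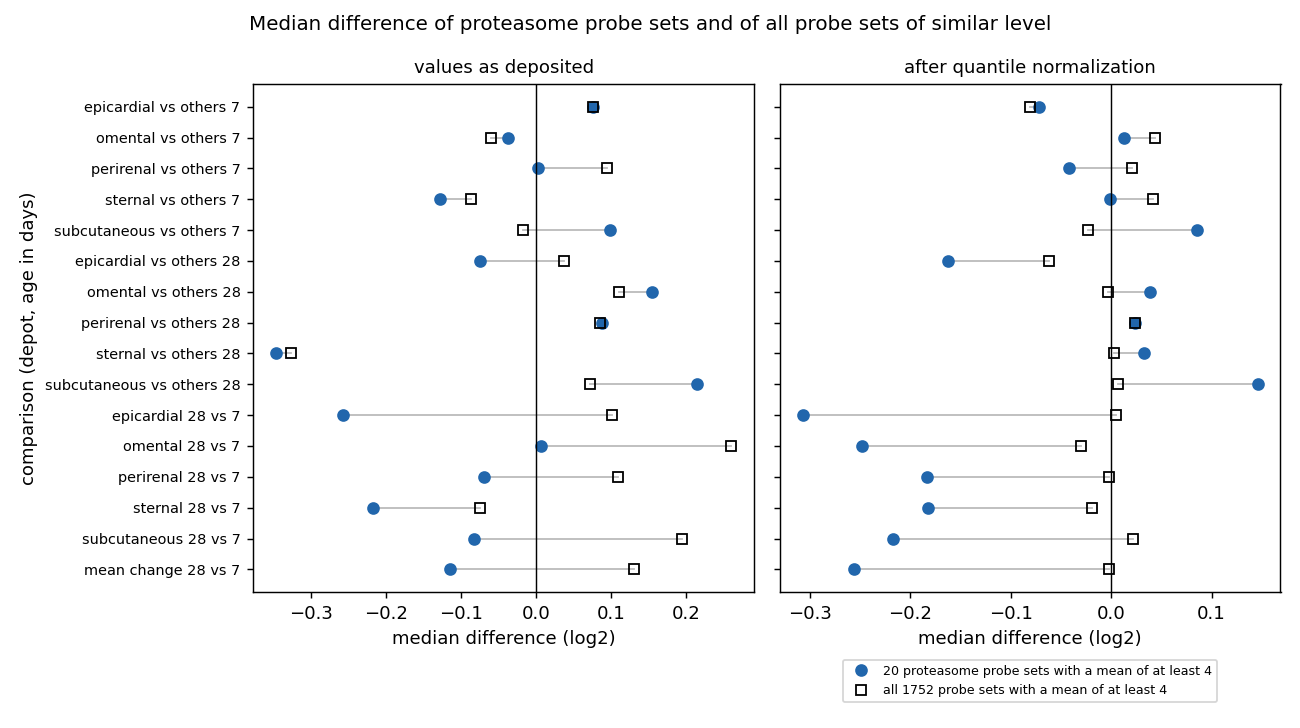
Median difference in log2 units (x axis) of the 20 proteasome probe sets averaging 4 or more (filled circles) and of all 1752 probe sets of that level (open squares) in each comparison (y axis), for values as deposited (left) and after quantile normalization (right). In the 5 changes with age and their mean the circle lies left of the square in both panels, while for sternal fat at 28 days the circle and the square nearly meet at -0.347 and -0.327.

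PSMD14, the subunit of the cap that removes ubiquitin chains, fell in 3 single depots, more than any other member. Its level averaged over depots was 8.792 at 7 days and 8.498 at 28 days, a difference of -0.29 ± 0.04 (SE, adjusted p = 1.62e-06, limma), lower in 5 of 5 depots. In perirenal fat its values were 8.755, 8.726, 8.611, 8.621 and 8.621 at 7 days and 8.283, 8.577, 8.223, 8.173 and 8.172 at 28 days. The groups did not overlap there, nor in epicardial fat, where the arrays lay between 8.637 and 8.698 at 7 days and between 8.01 and 8.589 at 28 days. The difference was -0.38 in perirenal fat (adjusted p = 0.00791, limma), -0.36 in epicardial fat (adjusted p = 0.021, limma) and -0.29 in omental fat (adjusted p = 0.0414, limma). The epicardial call was lost without array 1 or 4 at 28 days, with adjusted p values of up to 0.111, and the omental call without any of 7 arrays, up to 0.175. In sternal and subcutaneous fat the changes of PSMD14 did not pass the test.

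Of the 7 alpha subunits measured, PSMA1, PSMA2 and PSMA3 fell in the average over depots and PSMA4, PSMA5, PSMA7 and PSMA8 did not pass. PSMA2 went from 8.008 to 7.645, a difference of -0.36 ± 0.07 (SE, adjusted p = 6.62e-05, limma), and was lower in 5 of 5 depots. Its largest difference was in sternal fat, where the arrays read 7.78, 7.942, 7.674, 8.204 and 7.802 at 7 days and 6.612, 7.478, 7.183, 7.32 and 6.981 at 28 days, with no overlap. There the change was -0.77 ± 0.15 (SE, adjusted p = 0.000573, limma). PSMA1 went from 7.223 to 6.845, -0.38 ± 0.08 (SE, adjusted p = 0.000339, limma), again lower in 5 of 5 depots. In sternal fat PSMA1 was 7.233, 7.507, 7.056, 7.476 and 6.549 at 7 days and 5.987, 6.748, 6.848, 5.558 and 6.151 at 28 days, so that the lowest array at 7 days lay within the range at 28 days. The sternal change of PSMA1 was -0.91 (adjusted p = 0.000521, limma), and -0.66 (adjusted p = 0.0947, limma) without the arrays rich in CKM. That fit leaves sternal arrays 1 and 3 at 28 days. PSMA3 changed by -0.15 ± 0.05 (SE, adjusted p = 0.0235, limma), lower in 4 of 5 depots.

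Among the 6 beta subunits of the standard core, PSMB3 and PSMB6 fell and PSMB1, PSMB2, PSMB4 and PSMB5 did not pass the test. After quantile normalization all 6 were called lower. PSMB6, which carries a cutting site, went from 4.255 to 3.938, -0.32 ± 0.05 (SE, adjusted p = 1.01e-05, limma), lower in 5 of 5 depots. In sternal fat PSMB6 was 4.202, 4.072, 4.121, 4.728 and 4.06 at 7 days and 3.41, 3.904, 3.738, 3.627 and 3.491 at 28 days. The ages did not overlap, with a difference of -0.60 (adjusted p = 0.000464, limma). The epicardial change of PSMB6, -0.42 (adjusted p = 0.0219, limma), was lost without array 4 at 7 days or array 4 at 28 days, with adjusted p values of up to 0.158. PSMB3, a structural beta subunit, went from 6.971 to 6.634, -0.34 ± 0.06 (SE, adjusted p = 5.42e-05, limma). Its epicardial values were 6.972, 7.298, 7.27, 7.103 and 7.255 at 7 days and 6.454, 6.834, 6.69, 5.76 and 6.556 at 28 days. They did not overlap, and the difference was -0.72 ± 0.14 (SE, adjusted p = 0.000671, limma). In sternal fat PSMB3 changed by -0.52 (adjusted p = 0.0155, limma). The call was lost without array 4 at 7 days or array 1 or 4 at 28 days, with adjusted p values of up to 0.10. It was also lost without the arrays rich in CKM (-0.45, adjusted p = 0.249, limma), which leaves sternal arrays 1 and 3 at 28 days.

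**Figure D3:**
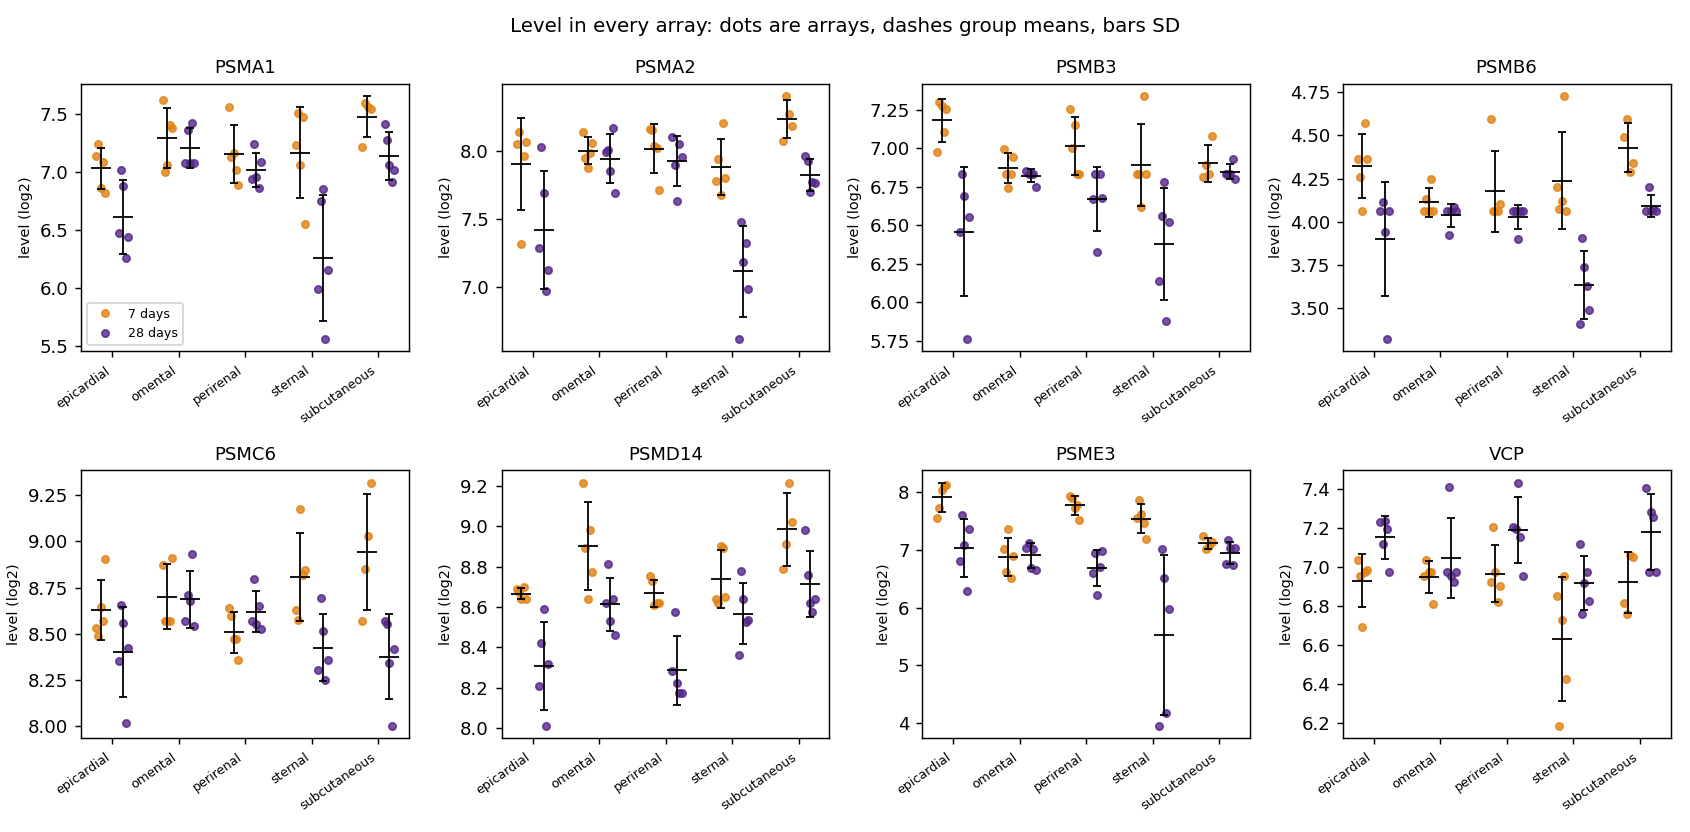
Level in log2 units (y axis) of 7 members that fell with age and of VCP, which rose, in every array, by depot (x axis) and age (orange 7 days, purple 28 days); dashes are group means and bars SD, and each panel has its own axis, which does not start at 0. PSMD14 sits lower at 28 days in every depot, PSME3 has 2 sternal arrays near 4 at 28 days, and VCP means are higher at 28 days in every depot.

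The ATPases of the cap moved in both directions. Of 5 measured, PSMC6 fell, PSMC1 rose, and PSMC2, PSMC3 and PSMC4 did not pass. PSMC6 changed by -0.22 ± 0.06 over the depots (SE, adjusted p = 0.00273, limma), and its changes differed between depots (adjusted p = 0.0381, limma F test of the interaction). That interaction call was lost in 13 of the 49 fits that left out 1 array, with adjusted p values of up to 0.082. In subcutaneous fat PSMC6 was 8.572, 8.85, 9.03 and 9.319 at 7 days and 8.572, 8.552, 8.341, 8.001 and 8.417 at 28 days. The ages met only at 8.572, and the change was -0.57 ± 0.13 (SE, adjusted p = 0.00372, limma). In perirenal fat the difference of PSMC6 was 0.11 (adjusted p = 0.77, limma). PSMC1 changed by 0.23 ± 0.05 over the depots (SE, adjusted p = 0.000309, limma) and was higher in 5 of 5, with the largest difference in subcutaneous fat. There it was 4.569, 4.455, 4.569 and 4.569 at 7 days and 4.867, 5.158, 4.809, 5.037 and 4.845 at 28 days, without overlap. That subcutaneous change of 0.40 (adjusted p = 0.0184, limma) was lost without array 2 at 7 days or array 2 at 28 days, with adjusted p values of up to 0.0594. Markers of skeletal muscle moved in the same comparison: of 5 measured, TNNC2 (-4.14), ACTN3 (-2.54) and MYBPC2 (-0.39) fell in subcutaneous fat, and CKM was at -4.50 (adjusted p = 0.071, limma). When the 9 sternal or subcutaneous arrays rich in CKM were left out, which leaves 1 subcutaneous array at 7 days, the subcutaneous changes were -0.52 for PSMC6 (adjusted p = 0.151, limma) and 0.39 for PSMC1 (adjusted p = 0.492, limma). After quantile normalization the subcutaneous change of PSMC1 was 0.13 (adjusted p = 0.60, limma), and its change over the depots was 0.07 (adjusted p = 0.336, limma).

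Among the other 8 subunits of the cap, only PSMD14 fell and PSMD3 and PSMD4 rose. PSMD4, a ubiquitin receptor, changed by 0.19 ± 0.05 (SE, adjusted p = 0.0043, limma) and PSMD3, a scaffold subunit, by 0.15 ± 0.05 (SE, adjusted p = 0.0134, limma), both from means under 4. Leaving out the 9 arrays of sternal and subcutaneous fat whose CKM exceeded 4, neither passed: PSMD4 was at 0.07 (adjusted p = 0.408, limma) and PSMD3 at 0.15 (adjusted p = 0.0873, limma). ADRM1, the other ubiquitin receptor measured, changed by 0.05 over the depots (adjusted p = 0.561, limma) and by 0.43 in omental fat (adjusted p = 0.0189, limma). The omental call was lost without array 4 at 7 days or array 3 at 28 days, with adjusted p values of up to 0.138. POMP, which guides assembly of the core, and the assembly factors PSMG2, PSMG4, PSMD5 and PSMD10 did not pass the test of the average change.

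Both interferon-induced cutting subunits that were measured rose on the deposited scale. PSMB10 went from 3.108 to 3.352, 0.24 ± 0.07 (SE, adjusted p = 0.00499, limma), and PSMB8 from 3.573 to 3.945, 0.37 ± 0.12 (SE, adjusted p = 0.0207, limma), both higher in 5 of 5 depots. In omental fat PSMB10 was 3.191, 3.245, 2.865, 2.8 and 3.245 at 7 days and 3.972, 3.253, 3.249, 3.872 and 3.259 at 28 days. The ages did not overlap, but 3 of the later arrays read 3.249 to 3.259 where the highest earlier ones read 3.245, and the change was 0.45 (adjusted p = 0.0313, limma). It was lost without any of 4 of the omental arrays, with adjusted p values of up to 0.142. PSMB8 in omental fat was 3.682, 3.522, 3.682, 2.76 and 3.604 at 7 days and 5.118, 3.926, 3.682, 4.027 and 3.682 at 28 days. Its highest values at 28 days came from 4 arrays that share a number in their titles, with 4.445 in epicardial, 5.118 in omental, 4.932 in perirenal and 5.283 in subcutaneous fat, while the sternal array of that number read 3.682. Without all arrays of that number the average change of PSMB8 was 0.18 (adjusted p = 0.166, limma). No single depot passed for PSMB8. After quantile normalization the average changes were 0.15 for PSMB10 (adjusted p = 0.135, limma) and 0.23 for PSMB8 (adjusted p = 0.215, limma). When the 9 arrays rich in CKM were left out, PSMB10 passed (0.26, adjusted p = 0.0349, limma) and PSMB8 did not (0.37, adjusted p = 0.0933, limma). PSME1, the other interferon-induced member measured, changed by 0.00 (adjusted p = 0.93, limma), and PSMB9 and PSME2 were not analysed here.

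VCP rose from 6.88 to 7.098, by 0.22 ± 0.05 (SE, adjusted p = 0.000768, limma), with positive differences of 0.10 to 0.29 in all 5 depots, none of which passed alone. In perirenal fat VCP was 6.926, 7.207, 6.976, 6.821 and 6.905 at 7 days and 7.209, 7.196, 7.435, 7.156 and 6.956 at 28 days, and the ranges overlapped. It also passed after quantile normalization (0.15, adjusted p = 0.0385, limma). PSME3IP1, which is no subunit, was called higher in epicardial, omental and subcutaneous fat and rose by 0.37 ± 0.05 on average (SE, adjusted p = 3.43e-07, limma).

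**Figure D4:**
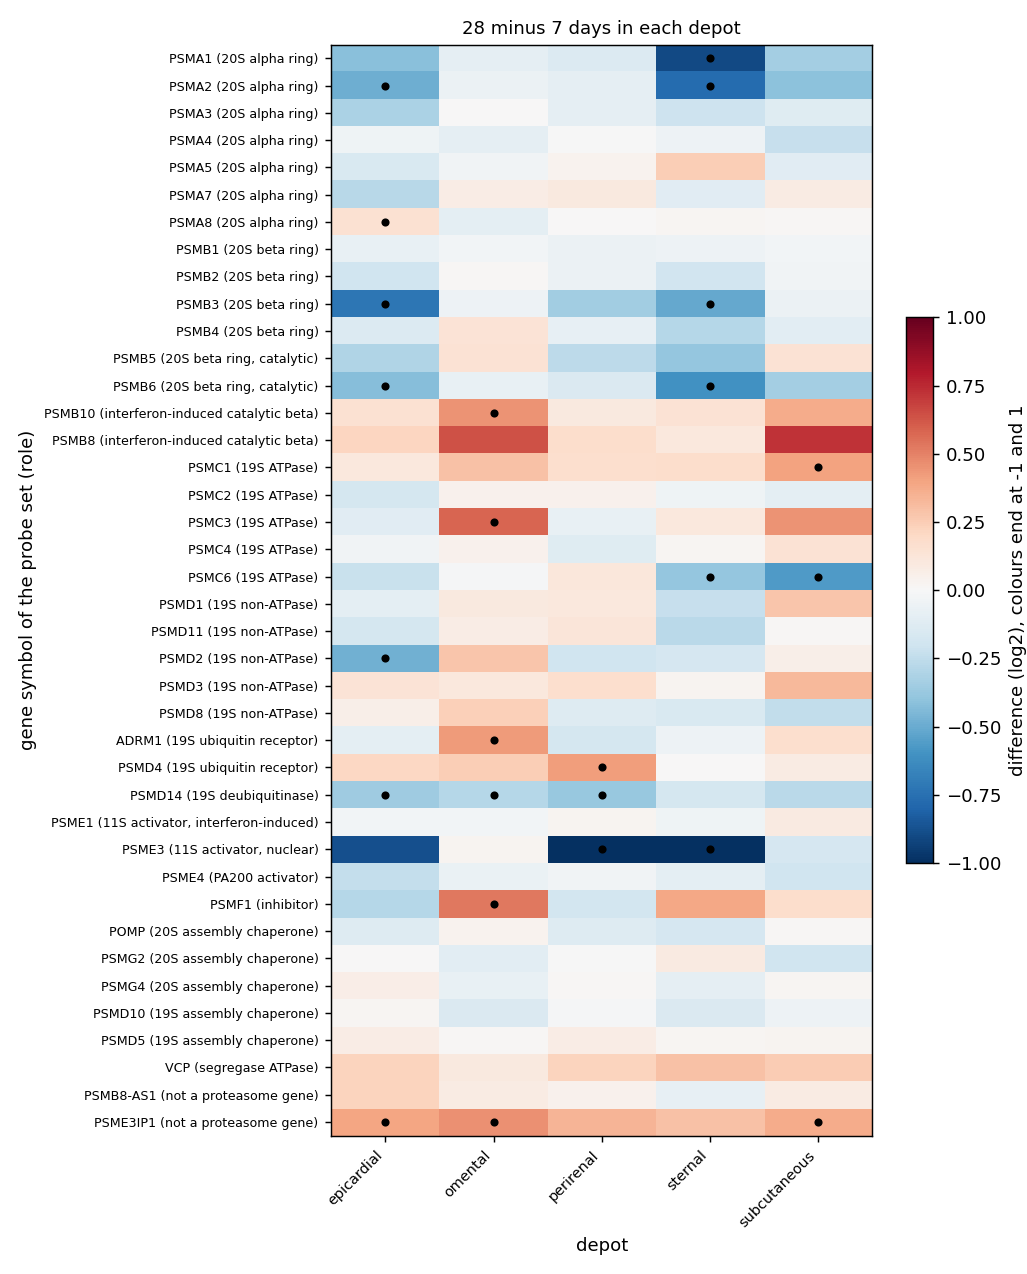
Difference between 28 and 7 days in log2 units (colour, blue lower and red higher at 28 days, ending at -1 and 1) for each of the 40 probe sets (rows, by role) in each depot (columns); black dots mark an adjusted p of at most 0.05. PSMD14 is blue in every column with dots in epicardial, omental and perirenal fat, and PSME3 reaches the end of the blue scale in perirenal and sternal fat, at -1.08 and -2.02.

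Within single depots between 3 and 7 of the 40 members were called. In epicardial fat 5 members fell and 2 rose, where 5.84% of all probe sets were called, 1.63% falling and 4.21% rising. In omental fat 5 rose (PSMC3, PSMF1, PSMB10, ADRM1 and PSME3IP1) and 1 fell (PSMD14), with 14.6% of all called, 13.5% rising and 1.03% falling. In perirenal fat PSME3 and PSMD14 fell and PSMD4 rose, with 9.32% of all called, 3.09% falling and 6.23% rising. In sternal fat 6 fell and none rose, with 6.37% of all called, 3.89% falling and 2.47% rising. In subcutaneous fat PSMC6 fell and PSMC1 and PSME3IP1 rose, with 9.25% of all called, 1.57% falling and 7.68% rising. The ages did not overlap for 2 members lower and 1 higher in epicardial fat (0.73% and 3.87% of all probe sets), 3 higher in omental fat (11.2%), 2 lower and 1 higher in perirenal fat (2.54% and 6.32%), 4 lower in sternal fat (2.2%) and 2 lower and 1 higher in subcutaneous fat (1.03% and 7.02%). After quantile normalization 8 members were called lower in epicardial (2.32% of all probe sets), 6 lower in omental (3.64%) and 8 lower in subcutaneous fat (2.38%). In perirenal fat 3 were lower and 1 higher (3.75% and 4.25% of all), and in sternal fat 6 lower and 2 higher (3.98% and 3.33%). The omental calls thus turned from mostly higher to lower. The epicardial count of 7 went down to 4 without array 1 or 5 at 7 days or array 1 or 5 at 28 days, to 3 without array 4 at 7 days and to 2 without array 4 at 28 days. The omental count of 6 went down to 3 without array 4 at 7 days or array 4 at 28 days. When the 9 arrays rich in CKM were left out, 1 subcutaneous array was left at 7 days. It is assumed to vary like the others, and no subcutaneous count is given for that fit.

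PSME3, which forms the nuclear cap of the core and promotes turnover that needs no ubiquitin, had the largest changes with age of all members. At 7 days it was highest in epicardial fat, at 7.55, 7.728, 8.045, 8.111 and 8.126, and in perirenal fat, at 7.937, 7.911, 7.727, 7.79 and 7.515. It was lowest in omental fat, at 7.019, 6.614, 7.357, 6.509 and 6.895. Sternal arrays lay between 7.184 and 7.868 and subcutaneous arrays between 7.019 and 7.237, so the omental arrays overlapped the subcutaneous and sternal ones but not the epicardial or perirenal ones. Against the mean of the other 4 depots at 7 days PSME3 was higher by 0.58 ± 0.12 in epicardial fat (SE, adjusted p = 0.00432, limma), higher by 0.41 ± 0.12 in perirenal fat (SE, adjusted p = 0.0437, limma) and lower in omental fat (-0.71 ± 0.12, SE, adjusted p = 0.00241, limma). The perirenal call was lost with the block (adjusted p = 0.0956, limma) and in 13 of the 24 fits without 1 array, with adjusted p values of up to 0.131. At 28 days sternal fat was lowest, at 3.945, 7.014, 6.509, 4.171 and 5.981, and the other depots lay between 6.223 and 7.61. Arrays 1 and 4 were thus far below the other 3 sternal arrays, and the highest sternal value lay inside the range of the other depots. Arrays 1 and 4 also had the lowest means over all probe sets of any array, at 3.249 and 3.26. The part of this in their PSME3 values was not tested.

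From 7 to 28 days PSME3 changed by -2.02 ± 0.32 in sternal fat (SE, adjusted p = 1.68e-05, limma) and by -1.08 ± 0.32 in perirenal fat (SE, adjusted p = 0.0216, limma), with no overlap of the ages in either. The sternal change lay between -2.39 and -1.62 when any array was left out. The perirenal call was lost without array 1 at 7 days or array 3 at 28 days, with adjusted p values of up to 0.0736. In epicardial fat the difference was -0.88 (adjusted p = 0.104, limma), in subcutaneous fat -0.17 and in omental fat 0.03. The changes of PSME3 differed between depots (adjusted p = 0.00985, limma F test of the interaction, called in all 49 fits without 1 array). Part of the brown adipocyte markers moved in the same groups. Of 5 such markers 4 were measured (UCP1, PPARGC1A, CIDEA and ADRB3), and their summed level at 7 days ran from 14.871 to 17.19 in epicardial fat, from 16.725 to 20.763 in perirenal fat and from 15.176 to 16.783 in sternal fat, against 10.534 to 13.537 in omental and 11.157 to 11.855 in subcutaneous fat. At 28 days the sums lay between 12.237 and 14.443 for epicardial arrays, between 11.619 and 13.563 for perirenal and between 10.927 and 11.578 for sternal ones. UCP1, the heat-producing carrier of brown fat, changed by -3.37 in perirenal fat (adjusted p = 1.14e-08, limma) and -1.56 in sternal fat (adjusted p = 0.00376, limma). PPARGC1A was called lower with age in perirenal (-2.44) and sternal fat (-3.06). It was also called lower in epicardial fat (-1.25), where PSME3 did not pass. The changes of CIDEA and ADRB3 with age were not called in these depots. The 4 markers did not move as one. Against the other depots at 7 days UCP1 was higher in perirenal fat alone (2.57), and in epicardial fat it was at -0.24 (adjusted p = 0.846, limma). PPARGC1A was higher in epicardial (1.84), perirenal (1.59) and sternal fat (1.30), and CIDEA and ADRB3 were called in no depot. The part of brown adipocytes in the values of PSME3 was not tested. The PSME3 probe set is of the kind that may bind related transcripts.

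The members were next compared between depots at the same age. At 7 days 7 of 40 members differed over the 5 depots (PSME3, PSMF1, PSMD8, PSMA5, PSMD10, PSMD2 and PSMA7), where 8.16% of all probe sets did. Among those averaging 4 or more it was 5 of 20 members and 27.6% of all. At 28 days 16 differed, where 20% of all probe sets did (11 members with the block), and among those averaging 4 or more it was 13 of 20 members and 57.1% of all. Each comparison of 1 depot with the mean of the other 4 shares its arrays with the others.

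**Figure D5:**
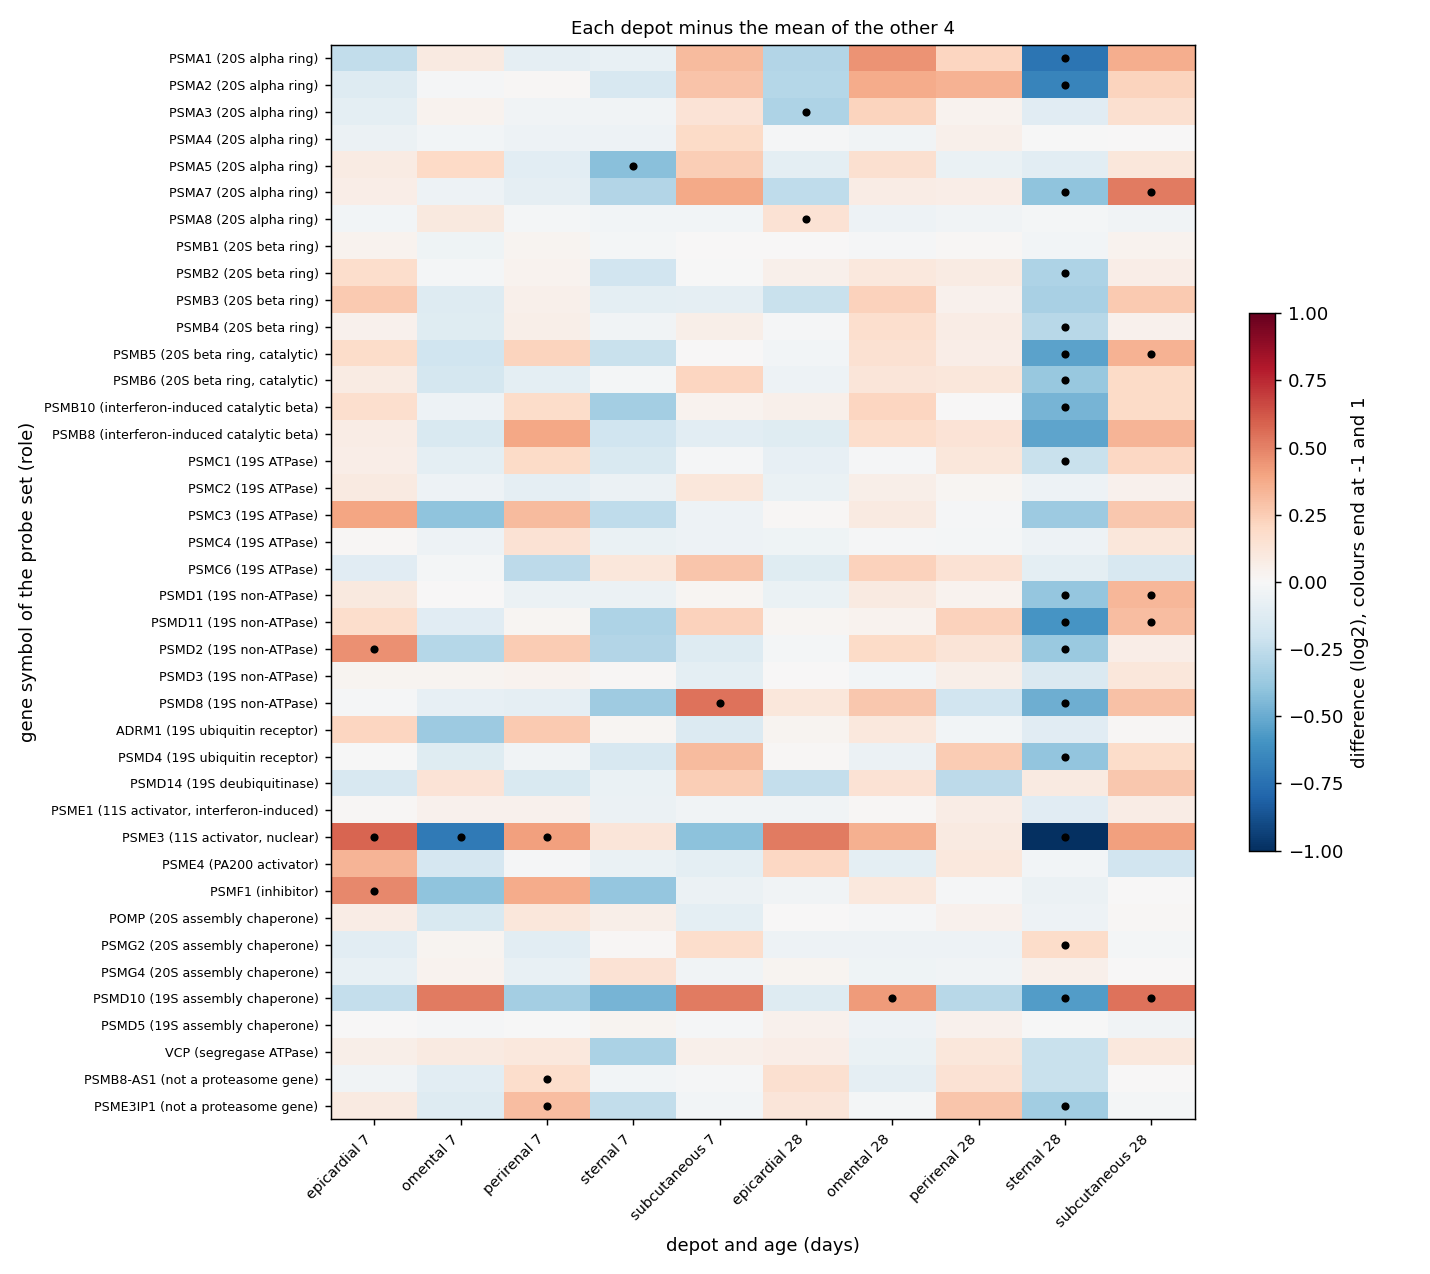
Difference between each depot and the mean of the other 4 in log2 units (colour, red higher and blue lower in the named depot, ending at -1 and 1) for each of the 40 probe sets (rows, by role) at 7 and 28 days (columns); black dots mark an adjusted p of at most 0.05. Most dots stand in the column of sternal fat at 28 days, where 17 of 18 are blue, and PSMD10 has the same colour in each depot at both ages.

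In sternal fat at 28 days 17 members were lower and 1 (PSMG2) higher than in the other depots, beside 20.1% of all probe sets called and 18.4% lower and 1.65% higher. The lower members were 3 alpha subunits, 4 beta subunits of the standard core, PSMB10, PSMC1, 5 subunits of the cap without ATPase activity, the assembly factor PSMD10, PSME3 and PSME3IP1. This share stood near that of other probe sets of similar level, since 13 of the 20 members with a mean of at least 4 were lower and 51.7% of all such probe sets were. The medians also lay together, at -0.347 for the 20 members and -0.327 for all. With the title number as a block 19 members were lower and 0 higher, beside 16.1% and 0.925% of all, so the call of PSMG2 ended. After quantile normalization 9 members were called, 4 lower and 5 higher, beside 3.48% and 5.89% of all probe sets. The 4 still lower were PSME3, PSMA1, PSMA2 and PSMD4. PSMC1 turned from -0.22 to 0.23 (adjusted p = 0.0365, limma), and PSMB2, PSMB4 and PSMD2 turned to small positive differences. CKM was 2.726, 12.718, 2.878, 4.512 and 11.32 in sternal arrays 1 to 5, and the 5 of 6 skeletal muscle markers that were measured summed to 13.413 to 37.512, against 13.326 to 13.919 in omental fat. When the 9 arrays rich in CKM were left out, which leaves sternal arrays 1 and 3, 9 members were lower and 1 higher in sternal fat. In that fit 7.65% of all probe sets were lower and 2.16% higher.

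PSMD11, a scaffold subunit of the cap, had the smallest p. Its sternal values at 28 days were 5.944, 5.77, 5.314, 5.358 and 5.869. The other depots lay between 6.052 and 6.545, so there was no overlap, and the difference was -0.59 ± 0.07 (SE, adjusted p = 9.6e-06, limma). PSMD1, another scaffold subunit, also did not overlap, with -0.39 ± 0.07 (SE, adjusted p = 0.000767, limma). Groups that did not overlap with the sternal group lower made up 2.14% of all probe sets and 2 of the 40 members. After quantile normalization PSMD11 was at -0.20 (adjusted p = 0.126, limma) and PSMD1 at -0.01 (adjusted p = 0.97, limma). The other large differences were -1.37 for PSME3, -0.73 for PSMA1, -0.66 for PSMA2, -0.56 for PSMD10 and -0.54 for PSMB5, with adjusted p values from 0.000418 to 0.00488 (limma). Calls of PSMA7, PSMB4, PSMB10, PSMD2 and PSMG2 were each lost without 1 or 2 of the sternal arrays 1, 4 and 5, with adjusted p values of up to 0.175.

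In subcutaneous fat at 28 days 5 members were higher than in the other depots, where 3.04% of all probe sets were called and 2.58% higher. PSMA7, an alpha subunit, was 7.748, 7.893, 7.756, 7.823 and 7.774 there, and 6.399 to 7.639 in the other depots. The groups did not overlap, at 0.52 ± 0.12 (SE, adjusted p = 0.0137, limma), and all 25 fits without 1 array kept the call. Among all probe sets 0.107% had a subcutaneous group wholly above the others. PSMD1 was higher by 0.33 (adjusted p = 0.0129, limma) and PSMD11 by 0.31 (adjusted p = 0.0224, limma), calls that were lost without subcutaneous array 1 or 4 and, for PSMD11, array 3, with adjusted p values of up to 0.0912. PSMB5 was higher by 0.35 (adjusted p = 0.047, limma) and lost its call in 20 of 25 fits without 1 array. The count of 5 members went down to 2 without subcutaneous array 1 or 4 and to 3 without array 3. It was 2 after quantile normalization (PSMD10 and PSMA7), 1 with the number as a block (PSMD10, while PSMA7 was at an adjusted p of 0.0817, limma) and 2 without the arrays rich in CKM (PSMA7 and PSMD1). The PSMA7 probe set, too, is of the kind that may bind related transcripts. At 7 days PSMA7 in subcutaneous fat was 7.209, 7.944, 7.672 and 8.042, a difference of 0.38 that did not pass (adjusted p = 0.051, limma).

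PSMD10, an assembly factor of the cap also known as gankyrin, was high in omental and subcutaneous fat at both ages. At 28 days subcutaneous arrays read 7.172, 6.919, 6.847, 6.946 and 6.589 and omental arrays 6.696, 6.969, 6.763, 6.917 and 6.65. Those of epicardial fat were 6.433, 6.556, 6.467, 6.503 and 5.825. Perirenal arrays lay between 5.975 and 6.534 and sternal arrays between 5.731 and 6.193, so that every subcutaneous and omental array was above every array of the other 3 depots. PSMD10 was higher in subcutaneous fat by 0.54 ± 0.11 (SE, adjusted p = 0.00606, limma) and in omental fat by 0.42 ± 0.11 (SE, adjusted p = 0.023, limma), and lower in sternal fat (-0.56 ± 0.11, SE, adjusted p = 0.000874, limma). The omental call was lost after quantile normalization (adjusted p = 0.112, limma), without the arrays rich in CKM (adjusted p = 0.0723, limma) and without omental array 2 or 4, with adjusted p values of up to 0.0808. At 7 days the group means were 6.946 in omental, 6.943 in subcutaneous, 6.338 in epicardial fat, with perirenal fat at 6.254 and sternal fat at 6.157. The F test at 7 days gave an adjusted p of 0.0304 (limma), lost in 8 of 24 fits without 1 array, and no single depot passed. The changes of PSMD10 with age lay between -0.15 and 0.02, and the interaction did not pass (adjusted p = 0.973, limma).

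Few members were called in the other depots. At 7 days epicardial fat was higher in 3 (PSME3, PSMF1 and PSMD2), with 4.07% of all probe sets called and PSME3 alone after quantile normalization or with the block, and omental fat was lower in PSME3 alone, with 1.54% of all called. Perirenal fat at 7 days was higher in PSME3, PSMB8-AS1 and PSME3IP1, with 5.11% of all called. All 3 calls were lost after quantile normalization, with the block and without the arrays rich in CKM, with adjusted p values from 0.0501 to 0.359 (limma), and 11 of 24 fits without 1 array called 0 or 1 of them. Sternal fat at 7 days was lower in PSMA5 alone (-0.42 ± 0.09, SE, adjusted p = 0.02, limma), with 1.2% of all called, and subcutaneous fat higher in PSMD8 alone (0.54 ± 0.10, SE, adjusted p = 0.00863, limma), with 1.53% of all called. The PSMA5 call was lost without sternal array 5, at an adjusted p of 0.0991, and under quantile normalization, the block and the omission of arrays rich in CKM, at adjusted p values from 0.0534 to 0.0603 (limma). The PSMD8 call was lost in the last of these (adjusted p = 0.503, limma), where 1 subcutaneous array was left. PSMD8 in subcutaneous fat at 7 days was 4.584, 4.399, 4.259 and 4.27, and its other arrays of that age lay between 3.418 and 4.303, so that an omental array overlapped. At 28 days epicardial fat was higher in PSMA8 and lower in PSMA3, with 3.24% of all called. Each of the 25 fits without 1 array called 0 or 1 members there, and both calls were lost with the block (adjusted p = 0.384 and 0.0555, limma) and without the arrays rich in CKM (adjusted p = 0.0837 and 0.0909, limma). PSMA8 had a mean of 2.518, near the lowest value of the scale. Omental fat at 28 days was higher in PSMD10 alone, with 5.12% of all called. Perirenal fat at 28 days had 0 members called by limma, with 3.36% of all called.

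PSMF1, an inhibitor of the core, passed the test of the change with age in omental fat. At 7 days it was 4.234, 4.115, 3.797, 4.278 and 3.991 in epicardial fat and 3.307, 3.319, 3.508, 3.36 and 3.404 in omental fat, which did not overlap. At 28 days the omental arrays were 3.797, 4.027, 3.797, 4.112 and 3.797, above every omental array at 7 days, a change of 0.53 ± 0.15 (SE, adjusted p = 0.00986, limma). After quantile normalization the omental change was 0.22 (adjusted p = 0.454, limma). The differences with age were 0.38 in sternal, 0.18 in subcutaneous, -0.29 in epicardial and -0.18 in perirenal fat, none of which passed, and omental fat was not tested against any of them singly. The changes differed between depots (adjusted p = 0.0163, limma F test of the interaction). PSMD1 was the fourth member with such a call (adjusted p = 0.0483, limma), lost in 36 of 49 fits without 1 array. In all 4 of 40 members passed the interaction test (PSME3, PSMF1, PSMC6 and PSMD1), where 9.17% of all probe sets did.

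Members of higher level were also compared with each other from array to array. Across the 49 arrays, after the mean of its group had been taken from each value, the 190 pairs among the 20 members with a mean of at least 4 had a median Pearson correlation of 0.183, and 148 pairs were positive. The median over all pairs of the 1752 probe sets of that level was 0.055. After quantile normalization the medians were 0.112 and 0.008. The highest values were 0.713 for PSMA3 with PSMD14 and 0.643 for PSMC6 with PSMD14. The points share their arrays and groups, and the correlations are given as a description.

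Other genes of the pathway were counted from lists of partners, on the deposited scale only. Of all probe sets 25.5% were called in the average change on that scale, 20.6% rising and 4.85% falling. After quantile normalization 9.95% rose and 8.44% fell. Of 16 measured regulators and associated factors, 5 rose and 1 fell in the average change with age: RAD23B (0.38), ZFAND5 (0.32), PITHD1 (0.22), UBQLN1 (0.18) and NGLY1 (0.12) rose and BAG6 fell by 0.18. RAD23B and UBQLN1 carry ubiquitin-marked proteins to the cap, and the adjusted p values of the 6 lay between 0.000247 and 0.00785 (limma). NFE2L1, the transcription factor that raises proteasome genes when the proteasome is blocked, changed by 0.01 (adjusted p = 0.878, limma). Of the ubiquitin-activating enzymes, UBA1 rose by 0.53 (adjusted p = 8.11e-09, limma) and UBA6 did not pass. Of 12 measured VCP cofactors, 3 rose and 2 fell. NSFL1C changed by 0.42 (adjusted p = 8.69e-08, limma), UBXN1 by -0.31 (adjusted p = 3.4e-06, limma), FAF2 by 0.12 and FAF1 by -0.11. Of 10 measured partners in antigen presentation, 5 rose and none fell: HLA-F (0.44), HLA-C (0.37), PDIA3 (0.21), HLA-E (0.17) and CALR (0.15), with adjusted p values from 4.71e-05 to 0.014 (limma). These lists had medians of 0.03, 0.28, 0.03 and 0.13 in the order named, beside 0.03 over all probe sets. The median of 0.28 is that of UBA1 and UBA6 alone.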

How the data were processed

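Arrays were Affymetrix Human Genome U133 Plus 2 chips hybridised with sheep RNA. Per the labels, the deposited log2 values came from GCRMA, which the authors ran in affy to correct background by probe sequence, normalize and summarise probe sets. The version is not given in the sources used here. In all 10273 probe sets were deposited, fewer than the chip holds, by a filter not described for this table (the study names a variance test before its principal component analysis), and 9780 of them had 1 symbol in the platform annotation. The arrays do not share 1 distribution, so quantile normalization was an alternative. A low value can be low expression or a human probe that binds the sheep transcript poorly, which cannot be told apart, and the number of arrays limits the precision. Ages were taken from the age field, though the description gives a different range.

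Tests used limma 3.58.1 in R 4.3.3: an F test over depots and each single depot against the average of the remaining 4, per age, and 28 against 7 days per depot, their mean and their interaction over all 49 arrays, with Benjamini-Hochberg adjustment over all probe sets at 0.05. The procedure was tested on simulated data. Members and gene lists were chosen with earlier results of these data known. Members named with full statistics were up to 6 called with the largest rise and 6 with the largest fall per comparison. PSMB8, PSMB10, PSME1, POMP, ADRM1 and VCP were named as well. Partners were named by the 4 largest called changes. Beside these, NGLY1, BAG6, CALR, UBA6, NFE2L1, UCP1 and PPARGC1A were named after their values were seen. Alternatives were quantile normalization, a mean of at least 4, a block for the replicate number, leaving out sternal and subcutaneous arrays with CKM above 4, leaving out each array and, chosen after seeing the data, leaving out all arrays of a title number.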

Additional observations from a re-analysis of the deposited data

Results flagged for a closer look

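Of the 40 members, 4 changed with age differently between the depots by the interaction test: PSME3 (adjusted p = 0.00985, limma), PSMF1 (adjusted p = 0.0163, limma), PSMC6 (adjusted p = 0.0381, limma) and PSMD1 (adjusted p = 0.0483, limma).

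In 24 of 140 groups, over 14 members whose levels were given by array, 1 array stood far from the others by the gap at the end of the range. Chance flags about 1 in 20 groups, which is 7 here, and in 10 of the 24 at least 3 arrays of the group held an equal value, which makes such gaps more frequent.

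For PSMB6 these were the arrays with 4.594 in perirenal fat at 7 days (array 1), 4.728 in sternal fat at 7 days (array 4), and at 28 days 3.321 in epicardial fat (array 4), 3.922 in omental fat (array 2), 3.9 in perirenal fat (array 3) and 4.2 in subcutaneous fat (array 2). For PSMB3 they were 6.75 in omental fat (array 5) and 6.928 in subcutaneous fat (array 4), both at 28 days.

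For PSMB8 they were, at 7 days, 3.426 in epicardial and 2.76 in omental fat (array 4 in both), 4.614 in perirenal fat (array 2) and 2.905 in subcutaneous fat (array 1), and at 28 days 4.445 in epicardial and 5.118 in omental fat (array 1 in both) and 2.891 in sternal fat (array 3). For PSMB10 it was 3.291 in perirenal fat at 7 days (array 2).

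The remaining ones were PSMA1 at 7.211 in subcutaneous fat at 7 days (array 1), PSMA2 at 7.312 in epicardial fat at 7 days (array 3), PSMC1 at 4.455 in subcutaneous fat at 7 days (array 2), PSMD14 at 8.577 in perirenal fat at 28 days (array 2), PSMD10 at 5.825 in epicardial fat at 28 days (array 5), PSMD11 at 6.279 in omental fat at 28 days (array 1), and VCP at 6.693 in epicardial fat at 7 days (array 3) and 7.41 in omental fat at 28 days (array 2).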

How the results depend on the processing

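The counts of called members were refitted under each alternative. After quantile normalization they became, at 7 days, 1 instead of 3 in epicardial fat against the other depots, 1 instead of 3 in perirenal, 0 instead of 1 in sternal and 2 instead of 1 in subcutaneous fat. At 28 days they became 10 instead of 16 over all depots, 0 instead of 1 in omental, 1 instead of 0 in perirenal, 9 instead of 18 in sternal and 2 instead of 5 in subcutaneous fat, and for the change with age in subcutaneous fat 8 instead of 3. In the same order 4.37%, 2.67%, 1.28% and 1.63% of all probe sets were then called at 7 days. At 28 days it was 12.8%, 2.91%, 2.6%, 9.36% and 2.28%, and 4.8% for the change with age in subcutaneous fat. In sternal fat at 28 days the differences of PSMB2 (0.1018), PSMD2 (0.0576), PSMB4 (0.1385) and PSMC1 (0.2268) turned positive. With only probe sets averaging at least 4, fewer were tested, 20 of them members. At 7 days 2 were called in omental (14.4% of all tested) and 1 in perirenal fat (16.4%). Sternal fat then had 4 (11.2%) and subcutaneous fat 2 (10.3%). At 28 days 1 was called in epicardial (14.6%) and 2 in omental fat (18.2%). For the change with age 2 were called in omental fat (39.7%), and 7 for the interaction (41.5%).

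The replicate block gave, at 7 days, 1 in epicardial (3.6% of all probe sets), 2 in omental (1.46%) and 0 in perirenal fat (4.19%). At 28 days it gave 1 in epicardial (2.13%), 2 in omental (5%) and 1 in subcutaneous fat (1.48%). In sternal fat it gave 19 instead of 18 at 28 days (17%) and 5 instead of 6 for the change with age (6.35%). The deviations of arrays with the same number had a median correlation of 0.109 at 7 days (18 of 33 pairs over 0.1, range -0.467 to 0.269). At 28 days it was 0.127 (23 of 39 pairs over 0.1, range -0.16 to 0.518). For the change with age the correlation within a number was estimated at 0.011. The study took several depots from each animal, but the labels do not define the number. At 7 days 7 numbers occur and at 28 days 8, while the study took each depot from 5 animals of a group. Whether arrays of 1 number share an animal is not known. Leaving out the 9 arrays rich in CKM leaves fewer samples, with 1 subcutaneous array at 7 days. Counts of that fit are therefore not given for 7 days or for the change with age in subcutaneous fat. For 28 days they were 9 over all depots, 0 in epicardial, 0 in omental, 10 in sternal and 2 in subcutaneous fat. At 28 days 11.3% of all probe sets were then called over all depots. It was 3.24% in epicardial, 4.04% in omental, 9.81% in sternal and 1.57% in subcutaneous fat. The cause of the other changes was not tested.

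When each array was left out, the counts at 7 days ran from 4 to 8 over all depots (4 without perirenal array 1), 1 to 4 in epicardial (1 without epicardial array 5), 1 to 2 in omental, 0 to 3 in perirenal (0 without perirenal array 1, 2 or 4), 0 to 2 in sternal and 1 to 2 in subcutaneous fat. At 28 days they ran from 13 to 18 over all depots, 0 to 1 in epicardial, 0 to 2 in omental, 0 to 1 in perirenal, 14 to 20 in sternal and 2 to 5 in subcutaneous fat. The changes with age ran from 2 to 8 in epicardial, 3 to 7 in omental, 2 to 4 in perirenal, 5 to 8 in sternal and 2 to 4 in subcutaneous fat, 15 to 16 in their average (14 to 15 when all arrays of a number were left out, an alternative chosen after seeing the data) and 2 to 8 in the interaction (8 without epicardial array 3 at 7 days).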
